A study of Mus musculus with 4 samples.

Results

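The subject is 10 noncoding RNAs of the mouse, out of the 24391 genes in a count table of the progenitor T-cell line Beko. Malat1, Neat1 and Kcnq1ot1 are long RNAs that stay in the nucleus, and Gas5, Snhg1, Snhg3, Snhg4, Snhg6, Snhg8 and Snhg12 are host RNAs that carry small nucleolar RNAs (snoRNAs) in their introns. The genes were picked by symbol, and Malat1 was chosen because its share of the counts dropped upon washout, so its change is given as a description without a test. All 10 symbols were found, and all 10 passed the filter on low counts.

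DAPT is a γ-secretase inhibitor (GSI). γ-Secretase is the protease that cuts the Notch receptor in the membrane and so frees its intracellular part, which acts in the nucleus. The GSI group consisted of 2 libraries of cells held in DAPT for 48 h, and the washout group of 2 libraries of cells held in DAPT for 48 h, washed and grown for 24 h more. Both groups had thus received the inhibitor, which the methods describe as renewed at 24 h, and the washed cells differed from the GSI cells by removal of the drug, by a further wash and by the longer culture, which cannot be told apart. The labels give the dose of DAPT as 10 mg/ml and the study's methods give it as 10 μg/ml. Beko is 1 cell line, and no source used here says whether the libraries of a group came from separate cultures, so that p-values measure the spread between libraries, which may be technical.

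Malat1 is an abundant unspliced RNA of nuclear speckles, the bodies in which splicing factors are stored. Neat1 is the architectural RNA of paraspeckles, which form around its transcript and hold RNA-binding proteins. Kcnq1ot1 is transcribed antisense to Kcnq1 from the paternal chromosome and silences genes of an imprinted cluster. A snoRNA host is transcribed by RNA polymerase II and spliced, and the excised introns are trimmed to snoRNAs, which guide chemical modification of ribosomal RNA. The spliced host RNA often encodes no stable protein. Many hosts start with a run of pyrimidines (a terminal oligopyrimidine tract, as in ribosomal protein mRNAs), and spliced Gas5, named for its accumulation in growth-arrested cells, is degraded by the nonsense-mediated decay pathway when it is translated.

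To show what the host RNAs carry, snoRNAs were read from the mm9 genome at their GENCODE vM1 positions, 5′ to 3′. GENCODE places 25 snoRNAs inside 5 of the 7 hosts, 9 of them in Gas5, 8 in Snhg1, 4 in Snhg12 and 2 each in Snhg3 and Snhg4. Snhg6 and Snhg8 had no entry of that name. Capitals mark the C box (TGATGA) and the D box (CTGA) that define C/D snoRNAs, which guide methylation, or the ACA that closes H/ACA snoRNAs, which guide pseudouridylation. Snord47 lies in Gas5 (chr1:162968213-162968289, plus strand), and Snord99, Snora16a and Snora61 lie in Snhg12 (chr4:131866606-131866679, chr4:131865380-131865515 and chr4:131866155-131866284, plus strand). SNORD44 of Gas5 (chr1:162966813-162966872, plus strand) is shown as a host-borne snoRNA with no row of that name in the count table.
Snord47: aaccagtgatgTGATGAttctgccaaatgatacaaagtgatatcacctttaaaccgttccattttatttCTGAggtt
SNORD44: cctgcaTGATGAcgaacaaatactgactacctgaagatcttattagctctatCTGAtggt
Snord99: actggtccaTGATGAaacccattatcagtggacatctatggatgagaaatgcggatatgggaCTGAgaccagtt
Snora16a: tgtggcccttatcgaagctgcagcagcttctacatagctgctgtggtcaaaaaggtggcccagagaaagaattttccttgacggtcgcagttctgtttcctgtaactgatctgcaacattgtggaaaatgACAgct
Snora61: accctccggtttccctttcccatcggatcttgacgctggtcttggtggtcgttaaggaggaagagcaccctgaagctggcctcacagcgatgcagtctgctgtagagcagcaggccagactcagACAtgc

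Promoters of the hosts were shown because the hosts rose together, and a link between promoter features and the rise was not tested. The RefSeq windows on GRCm38.p6 matched 5 hosts (Gas5 with 2 windows) as well as Malat1 and Kcnq1ot1, and 100 bases are printed for 5 hosts and Malat1, from 50 before to 50 after the annotated start, on the transcribed strand. Capitals mark TATA where it lies between -45 and -16, and a C followed by at least 4 C or T where that run lies between -5 and +9 of the start. They are Gas5 (the second of its windows, chr1:161035116-161035215, plus), Snhg1 (chr19:8723437-8723536, plus), Snhg3 (chr4:132353637-132353736, minus), Snhg8 (chr3:123508287-123508386, minus), Snhg12 (chr4:132308628-132308727, plus) and, for contrast, Malat1 (chr19:5802623-5802722, minus).
Gas5: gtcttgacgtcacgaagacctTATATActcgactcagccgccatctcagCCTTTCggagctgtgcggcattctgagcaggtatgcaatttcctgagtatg
Snhg1: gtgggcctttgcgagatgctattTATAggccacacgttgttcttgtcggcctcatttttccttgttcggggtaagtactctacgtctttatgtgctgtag
Snhg3: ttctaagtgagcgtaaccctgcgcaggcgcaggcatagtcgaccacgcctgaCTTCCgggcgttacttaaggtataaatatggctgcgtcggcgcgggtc
Snhg8: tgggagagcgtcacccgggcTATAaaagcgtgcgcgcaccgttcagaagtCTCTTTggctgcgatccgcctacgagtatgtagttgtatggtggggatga
Snhg12: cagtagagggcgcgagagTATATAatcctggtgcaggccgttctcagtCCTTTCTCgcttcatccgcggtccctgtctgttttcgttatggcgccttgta
Malat1: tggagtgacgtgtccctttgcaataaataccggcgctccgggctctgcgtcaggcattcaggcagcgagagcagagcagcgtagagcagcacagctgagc

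TATA was present in 4 of the 6 host windows, against 6.72% of all 32851 windows. The pyrimidine run was present in 4 of the 6 host windows and in 17.1% of all windows, and both features were in 3 of the 6 and in 1.11% of all. Gas5 (in the window printed), Snhg8 and Snhg12 carried both, Snhg1 carried TATA and Snhg3 the pyrimidine run, whereas neither was in the windows of Malat1 and Kcnq1ot1. The Snhg3 window also holds TATA after the annotated start and after the pyrimidine run. It lies outside the stretch searched and was not counted, and whether transcription begins at the annotated start was not tested. The RBPJ motif TGGGAA, on either strand and over the whole window of 250 bases before to 50 after the start, was found in 2 of the 6 host windows (the other window of Gas5, and Snhg12) and in 25.6% of all windows. CACGTG, the E-box bound by Myc, was in none of the 6 and in 7.15% of all. These matches are letters in a window, and binding was not measured. The paper reports TGRGAA (R is A or G) at sites that lose RBPJ under GSI, mostly far from gene starts. Neither TGAGAA nor distal sequence was searched here.

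Total counts were between 13716199 and 36364200 per library, with replicate 1 the deeper one in both groups. The spread between replicates exceeded counting noise (chi-square divided by its degrees of freedom, 17.2 in GSI and 27.7 in washout). All 15 markers of progenitor T-cells were above 3 counts in every library. For B cells, erythroid cells and fibroblasts the markers of each type summed to at most 3.09 CPM in any library, and all 4 erythroid markers were at 0. Of 5 myeloid markers 1, the integrin Itgam, exceeded 3 counts in every library. The myeloid sum went from between 38.2 and 49.2 CPM under GSI to between 4.91 and 5.49 CPM after washout, while Lyz2 was at 0 throughout, and its part in the results was not tested. CPM is the count divided by the library size in units of 1e+06 counts, after scaling by TMM factors. In bulk RNA, fewer cells of a type and less RNA per cell cannot be told apart.

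To find which of these RNAs differed between washout and GSI, edgeR was run with its quasi-likelihood test on the 12266 genes with enough counts. Genes were called at an adjusted p-value under 0.05 together with a log2 fold change above 1 or below -1. In this contrast 7.74% of all genes tested were called higher and 11.7% lower (950 and 1437 genes). With the total count in place of TMM factors 586 were higher and 1963 lower. At the adjusted p-value alone, 27.0% were higher and 25.4% lower. Both washout libraries lay above both GSI libraries for 38.2% of the genes, and below both for 39.1%. Among the 9 RNAs other than Malat1, 5 were called higher and 1 lower, and at the adjusted p-value alone 7 were higher and 1 lower. The 5 were snoRNA hosts and the 1 was Neat1. The selection was made with these data known, so these counts are read as a description.

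**Figure D1:**
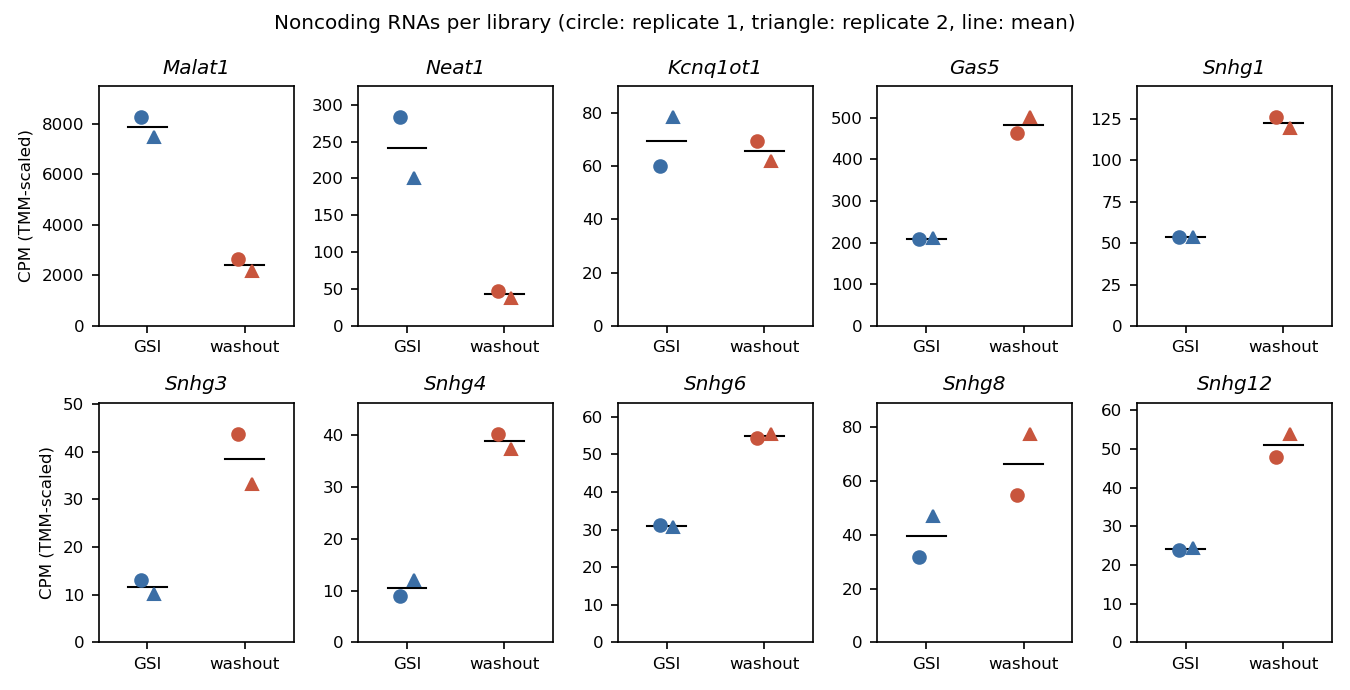
Level of each noncoding RNA in each library, in CPM scaled by TMM factors (vertical axis, starting at 0), with circles for replicate 1, triangles for replicate 2 and a line at the mean of the group. Malat1 and Neat1 are lower in both washout libraries, the 7 hosts are higher in both, and only the Kcnq1ot1 groups overlap.

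Malat1 lies on chromosome 19 from 5795690 to 5802671 (mm9, minus strand), as a single exon of 6982 bases with 42.5% GC. It took 0.891% of all counts in GSI replicate 1 (95% Wilson interval 0.887 to 0.894) and 0.795% in GSI replicate 2 (0.790 to 0.799). Upon washout its share was 0.249% in replicate 1 (0.248 to 0.251) and 0.203% in replicate 2 (0.201 to 0.206). These intervals cover counting error only. The shares of the 2 groups did not overlap, and in each group the deeper library had the higher share. By raw counts, Malat1 was number 3 and number 2 of all rows in the GSI libraries and number 12 and number 27 in the washout libraries.

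On the scale of CPM, Malat1 had 8259 and 7470 in GSI and 2661 and 2185 upon washout. Its log2 fold change was -1.70, or 3.25-fold lower, and the SD between replicates was 0.160 on the log2 scale. Of the genes tested, 621 had a lower log2 fold change. The value lay between -1.90 and -1.55 in all other settings and with any 1 library left out. The annotation places Gm20417, a transcript of the other strand, inside Malat1. Reads of the pair would be told apart only by a strand-aware count, and the setting is not given in the sources used here.

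Neat1 lies next to Malat1 on chromosome 19, from 5824708 to 5845478 on the same strand, as 1 exon block of 20771 bases. It had 9056 and 2931 counts under GSI and 1633 and 503 after washout. In CPM this was 283 and 200.9 in GSI against 48.0 and 37.4 upon washout. The groups did not overlap, although the GSI libraries differed from each other by more than the washout libraries did. Neat1 fell by 2.50 on the log2 scale, or 5.64-fold (standard error 0.204, edgeR adjusted p = 0.000438). It was called lower in every setting and with any library left out, from -2.71 without GSI replicate 2 to -2.06 once GC content and exon length were corrected for.

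Per kilobase of exon, Malat1 stood at 1180 and 1070 CPM in GSI and Neat1 at 13.6 and 9.67 CPM. The exon lengths are those of GENCODE vM1 (6982 and 20771 bases). The counts were made on the iGenomes annotation, whose lengths were not read, so these levels hold only for the lengths given. Upon washout the levels per kilobase were 381 and 313 CPM for Malat1 and 2.31 and 1.80 CPM for Neat1. In these units Malat1 stood far above Neat1 in all 4 libraries. The ratio of Neat1 to Malat1 levels was lower in both washout libraries. Since the ratio contains Malat1, it was not tested.

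Other genes around this locus were divided. Of 19 genes listed as neighbors of Malat1 and Neat1, 18 could be tested, and their median log2 fold change was -0.11, against -0.0096 for all genes tested. Called higher were 3 and called lower was 1 (7.74% and 11.7% of all genes tested). Highest was Sssca1 (1.25, edgeR adjusted p = 0.000715). Lowest was Ehbp1l1 (-1.25, edgeR adjusted p = 0.000364), an adaptor of membrane traffic. After the GC and length correction Ehbp1l1 was at -0.94, so that none was called lower, and the median of the list turned to 0.02.

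By the distance between centered log2(CPM + 0.5) values over the 4 libraries, the genes most like Malat1 were Olfml2a (0.0871), Dcaf17 (0.0872) and Pdgfb (0.0880). Dcaf17 had 137.0 and 120.8 CPM under GSI and 40.7 and 33.6 CPM after washout. Olfml2a and Pdgfb were below 4 CPM in all libraries, where the added 0.5 narrows differences. Their log2 fold changes in the edgeR fit, -2.25 for Olfml2a and -3.30 for Pdgfb, were further from 0 than that of Malat1.

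Kcnq1ot1, the imprinted antisense RNA, did not pass the test. It had 60.2 and 78.3 CPM under GSI and 69.5 and 61.9 CPM after washout. The groups overlapped, with the washout libraries lying between the GSI libraries. Its log2 fold change was -0.07 (standard error 0.147, edgeR adjusted p = 0.719). Without GSI replicate 2 it was 0.14 and without washout replicate 2 it was 0.03, so its sign rests on single libraries.

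Genes of the Kcnq1ot1 cluster and its flanks were measured one by one, since allele-specific reads are needed to follow imprinting and were not used here. Of 17 genes listed, 13 could be tested, with a median log2 fold change of -0.17. Called higher was 1, Cars, a cysteinyl-tRNA synthetase (1.08, edgeR adjusted p = 0.00159). Under total-count scaling its value was 0.88, and none of the list was then called higher and 4 lower. Called lower were 3, of which Slc22a18, an organic cation transporter, was lowest. Slc22a18 had 147 and 45 counts under GSI and 24 and 11 after washout, so that its log2 fold change was -2.37 (standard error 0.351, edgeR adjusted p = 0.00241). The others were Tnfrsf26 (-1.25) and the tetraspanin gene Tspan32 (-1.21). Of all genes tested, 7.74% were called higher and 11.7% lower. Kcnq1, Cdkn1c, Phlda2 and Ascl2 were too low to be tested, with 14 counts or fewer in any library.

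All 7 snoRNA hosts had both washout libraries above both GSI libraries, as had 38.2% of all genes tested. Summed over the 7, their level went from 370.3 and 390.2 CPM under GSI to 831.2 and 878.0 CPM after washout. The median of their log2 fold changes was 1.19. At the adjusted p-value alone all 7 were higher, and 5 of them were past both thresholds (27.0% and 7.74% of all genes tested). Under total-count scaling 3 of the 7 were past both, since every value dropped by about the same amount (the median of all genes tested was then -0.21).

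**Figure D2:**
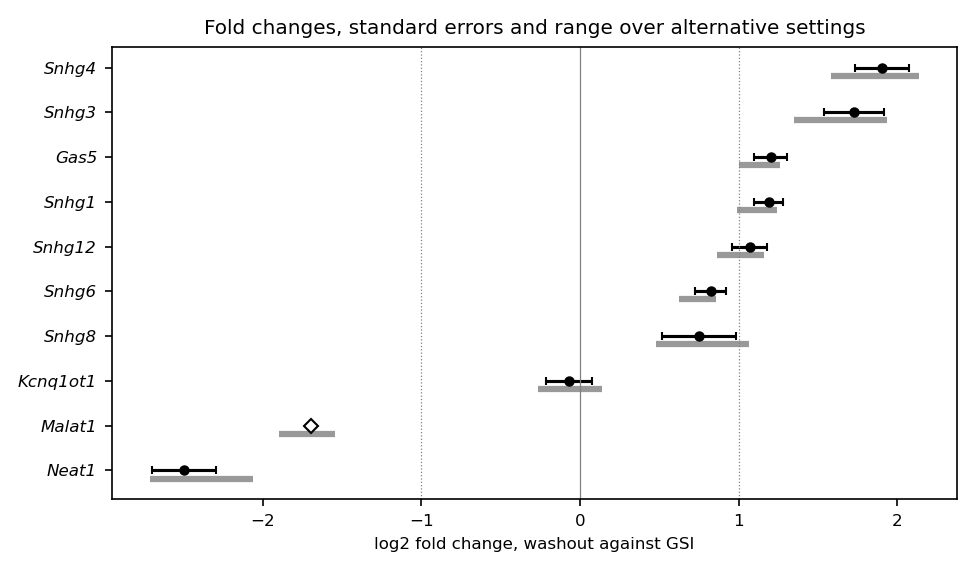
Log2 fold change of each RNA, washout against GSI (horizontal axis), with its standard error from edgeR (black bars) and, in gray, the range over the other settings and with each library left out. Malat1 is an open diamond without an error bar because it was chosen for its change. Dotted lines mark -1 and 1, and the gray ranges of Snhg1, Snhg8 and Snhg12 cross 1.

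Gas5 was the most counted host. It runs on chromosome 1 from 162964553 to 162968670 (mm9, plus strand). It had 6641 and 3089 counts under GSI and 15790 and 6732 after washout. In CPM, Gas5 rose from 207.6 and 211.7 to 463.9 and 500.9, with replicates that lay close together in both groups. Gas5 had a log2 fold change of 1.20, or 2.30-fold (standard error 0.103, edgeR adjusted p = 0.000462).

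Zbtb37, a zinc finger gene, starts head to head with Gas5 and overlaps it by 428 bases on the other strand. It was at 18.3 and 18.8 CPM under GSI and at 11.1 and 11.3 CPM after washout. Its log2 fold change was -0.73 (standard error 0.135, edgeR adjusted p = 0.0056), opposite in sign to that of Gas5.

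Snhg1 runs on chromosome 19 from 8797986 to 8800932. It hosts 8 snoRNAs named as C/D, the SNORD25 to SNORD31 series and Snord22. In SNORD26, SNORD28 and Snord22 the exact C and D boxes were not both found near the ends. The level of Snhg1 was 53.8 and 54.0 CPM under GSI and 126.1 and 119.6 CPM after washout. Snhg1 thus had a log2 fold change of 1.19, or 2.28-fold (standard error 0.090, edgeR adjusted p = 0.000374). Under total-count scaling Snhg1 was at 0.99 and just under the threshold. Slc3a2, which encodes the heavy chain of amino acid transporters, starts 127 bases away on the other strand. It rose from 137.5 and 134.1 to 223.6 and 248.0 CPM, with a log2 fold change of 0.80 (edgeR adjusted p = 0.00135), less than the threshold of 1.

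Snhg3 and Snhg4 had the largest log2 fold changes among the hosts. Snhg3, on chromosome 4 from 131903929 to 131909601, carries Snora73a and Snora73b. It had 416 and 147 counts under GSI and 1489 and 446 after washout, or 13 and 10.1 CPM against 43.8 and 33.2 CPM. Snhg3 reached a log2 fold change of 1.73, or 3.31-fold (standard error 0.192, edgeR adjusted p = 0.000921). Replicate 1 was the higher library in both groups. Rcc1, which encodes the exchange factor of the GTPase Ran, overlaps Snhg3 by 5592 bases on the same strand, and Gm17300 overlaps it on the other strand, so that the origin of shared reads is uncertain. Rcc1 rose from 63.0 and 76.1 to 222.7 and 237.4 CPM, at the same log2 fold change of 1.73 (standard error 0.122, edgeR adjusted p = 0.000343).

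Snhg4 is annotated on chromosome 18 from 35713064 to 35717970, with H/ACA snoRNAs of the Snora74 family inside. It had 285 and 177 counts under GSI and 1370 and 501 after washout. In CPM these were 8.91 and 12.1 against 40.3 and 37.3, without overlap. The log2 fold change of Snhg4 was 1.91, or 3.74-fold (standard error 0.172, edgeR adjusted p = 0.000534), and 109 genes had a higher value.

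Snhg12, on chromosome 4 from 131864593 to 131866939, hosts Snora16a, Snora44, Snora61 and Snord99. It was at 23.9 and 24.5 CPM under GSI and at 48.0 and 54.0 CPM after washout. The log2 fold change of Snhg12 was 1.07, or 2.10-fold (standard error 0.111, edgeR adjusted p = 0.000767). It fell under the threshold of 1 with total-count scaling (0.87) and after the GC and length correction (0.86).

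Snhg6 and Snhg8 changed by less than the threshold of 1. Snhg6, host of a C/D snoRNA, was at 31.3 and 30.6 CPM under GSI and at 54.4 and 55.4 CPM after washout. For Snhg6 the log2 fold change was 0.82, or 1.77-fold (standard error 0.0962, edgeR adjusted p = 0.00107). Its replicates were the closest of all 10 RNAs, with an SD of 0.0213 on the log2 scale.

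Snhg8 had 31.8 and 47.1 CPM under GSI and 54.9 and 77.6 CPM after washout. Replicate 2 was the higher library in both groups, and the replicates differed by an SD of 0.378 on the log2 scale, the largest of the 10. The log2 fold change of Snhg8 was 0.75 (standard error 0.234, edgeR adjusted p = 0.0356). It was 0.48 (edgeR adjusted p = 0.142) without GSI replicate 1, 0.51 (edgeR adjusted p = 0.0569) without washout replicate 2, and 1.07 (edgeR adjusted p = 0.00947) without GSI replicate 2. With total-count scaling it was 0.55 (edgeR adjusted p = 0.0833).

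The snoRNAs themselves were compared with their hosts where the count table has rows for them. Of the 25 snoRNAs located inside a host, 7 have a row, and all were tested. The median of their log2 fold changes was 0.79. Both washout libraries lay above both GSI libraries for 5 of the 7, as for 38.2% of all genes tested. At the adjusted p-value alone 3 were higher (27.0% of all genes tested). Of these 1, Snord99, was past both thresholds (7.74% of all genes tested). These calls depend on the processing. After the GC and length correction none of the snoRNAs was past both thresholds, and Snord99 (0.69, edgeR adjusted p = 0.0994), Snora16a (0.31, edgeR adjusted p = 0.215) and Snora74a (0.30, edgeR adjusted p = 0.279) no longer passed the test. Snora61 (0.53, edgeR adjusted p = 0.0292) then passed it. With total-count scaling Snora16a had an edgeR adjusted p = 0.0596. For 6 of the 7 the log2 fold change was below that of the host, a difference that was not tested. The libraries were not made for small RNA, and reads from unspliced host introns can fall on snoRNA rows, so these values are not levels of mature snoRNA alone.

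Snord99, the C/D snoRNA of Snhg12 whose sequence is printed with the others, had 30 and 20 counts under GSI and 77 and 46 after washout. For Snord99 the log2 fold change was 1.31 (standard error 0.374, edgeR adjusted p = 0.0269). Snora16a of the same host rose from 4.69 and 6.17 to 8.37 and 11.5 CPM, a log2 difference of 0.87 (edgeR adjusted p = 0.0268). Snora44 and Snora61 did not pass the test, with 0.92 (edgeR adjusted p = 0.0712) and 0.79 (edgeR adjusted p = 0.053). Snora74a of Snhg4 rose by 0.71 (standard error 0.139, edgeR adjusted p = 0.00688), where Snhg4 itself had 1.91.

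Snord22 of Snhg1 had 48.2 and 80.3 CPM under GSI and 77.2 and 111 CPM after washout, with groups that overlapped. Its log2 fold change was 0.55 (standard error 0.270, edgeR adjusted p = 0.131). Snord47 of Gas5 differed most between replicates, with 662 and 101 counts under GSI and 917 and 39 after washout. In both groups the deeper library was by far the higher one, at 20.7 against 6.92 CPM under GSI and 26.9 against 2.90 CPM after washout. Snord47 had a log2 fold change of 0.14 (standard error 0.870, edgeR adjusted p = 0.901), which was -0.06 under total-count scaling and -0.37 after the GC and length correction.

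**Figure D3:**
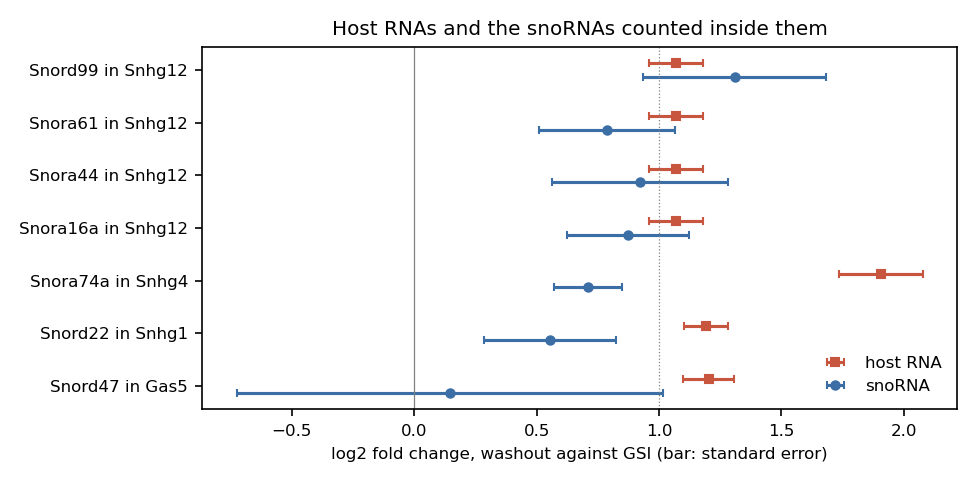
Log2 fold change, washout against GSI (horizontal axis), of each snoRNA with a row in the count table (blue circles) and of the host RNA that contains it (red squares), with standard errors from edgeR as bars. Only Snord99 lies to the right of its host, and the bar of Snord47 is the widest.

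Further host RNAs without a protein product were divided. Of the 19 names listed, 15 were in the count table and 12 could be tested, with a median log2 fold change of 0.27. Called higher were 2, Snhg7 (1.36, edgeR adjusted p = 0.00125) and Snhg5 (1.34, edgeR adjusted p = 0.000343). Snhg5 rose from 1139 and 545 counts to 3104 and 1261 counts. Called lower was 1, 2610035D17Rik (-1.63, edgeR adjusted p = 0.00711), whose role as a host is uncertain. Among all genes tested, 7.74% were called higher and 11.7% lower. 1500012F01Rik, the symbol in this table for Zfas1, was at 0.21 (standard error 0.0951, edgeR adjusted p = 0.11) and did not pass the test. After the GC and length correction the median of the 7 that have both features was 0.05, and Snhg5 (0.97) was under the threshold.

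Many snoRNAs lie in introns of protein-coding genes, and 39 such genes were listed and tested. Called higher were 12 and called lower none (7.74% and 11.7% of all genes tested), at a median of 0.48. At the adjusted p-value alone 28 were higher (27.0% of all genes tested). The 12 called were all among the 19 that do not encode ribosomal proteins, whose median was 1.22. Highest was Dkc1, which encodes the pseudouridine synthase dyskerin and hosts H/ACA snoRNAs (2.24, edgeR adjusted p = 0.000294). Lowest was Tpt1 (-0.30, edgeR adjusted p = 0.0989). The 20 ribosomal protein genes on this list had log2 fold changes from 0.14 to 0.99 with a median of 0.39, and 14 of them were higher at the adjusted p-value alone. This split was made after the values were seen.

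Proteins that bind or assemble snoRNAs formed the list with the most calls. Of 17 genes tested, 16 were called higher and none lower (7.74% and 11.7% of all genes tested), with a median log2 fold change of 1.5. With total-count scaling it was 14, at a median of 1.30. Dkc1 had 1986 and 951 counts under GSI and 11086 and 3684 after washout. Fbl, the methyltransferase fibrillarin of C/D snoRNPs, rose by 1.61 (standard error 0.117, edgeR adjusted p = 0.000345). Nop58 (1.81) and Nop56 (1.69), the core proteins of the same particles, are themselves snoRNA hosts and on both lists, as is Dkc1. The exception was Pih1d1, a subunit of the assembly chaperone R2TP (0.26, edgeR adjusted p = 0.0829).

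Of the factors of nonsense-mediated decay, the pathway that degrades spliced Gas5, most were under the threshold. Of 18 genes tested, 2 were called higher and none lower (7.74% and 11.7% of all genes tested), at a median of 0.21. At the adjusted p-value alone 7 were higher and 4 lower (27.0% and 25.4% of all genes tested). Highest was Magohb (1.17, edgeR adjusted p = 0.00459), a subunit of the exon junction complex, and the other call was its paralog Magoh. Both were under the threshold with total-count scaling and after the GC and length correction, where none was called higher and 1, Pnrc2, lower. Pnrc2 had a log2 fold change of -0.98 (edgeR adjusted p = 0.00125). Upf1, the central helicase of the pathway, rose by 0.65 (edgeR adjusted p = 0.00295), which is under the threshold.

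Among genes for proteins of the bodies that Malat1 and Neat1 belong to, none was called lower. None of 21 paraspeckle genes was called in either direction, whereas after the GC and length correction Rbm14 (1.01) was called higher. Their median log2 fold change was 0.53. At the adjusted p-value alone 13 were higher and 1 lower (27.0% and 25.4% of all genes tested). Highest was Rbm14 (0.88, edgeR adjusted p = 0.00275). Sfpq and Nono, core paraspeckle proteins that bind Neat1, rose by 0.56 and 0.53 (edgeR adjusted p = 0.00874 and 0.00836). With total-count scaling Sfpq was at 0.37 and Nono at 0.33. Pspc1, on the same list, was at 0.27 (edgeR adjusted p = 0.0505) and did not pass the test.

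Of 21 nuclear speckle genes 7 were called higher and none lower (7.74% and 11.7% of all genes tested), at a median of 0.71. With total-count scaling 3 were called, and after the GC and length correction 4 of the 20 that could be tested. Srsf2, a splicing factor that marks speckles, rose most, by 1.33 (standard error 0.166, edgeR adjusted p = 0.00133). The scaffold gene Son was at -0.05 (edgeR adjusted p = 0.754) and did not pass the test. Lowest was Clk1, a kinase that releases splicing factors from speckles, at -0.53 (edgeR adjusted p = 0.00498).

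**Figure D4:**
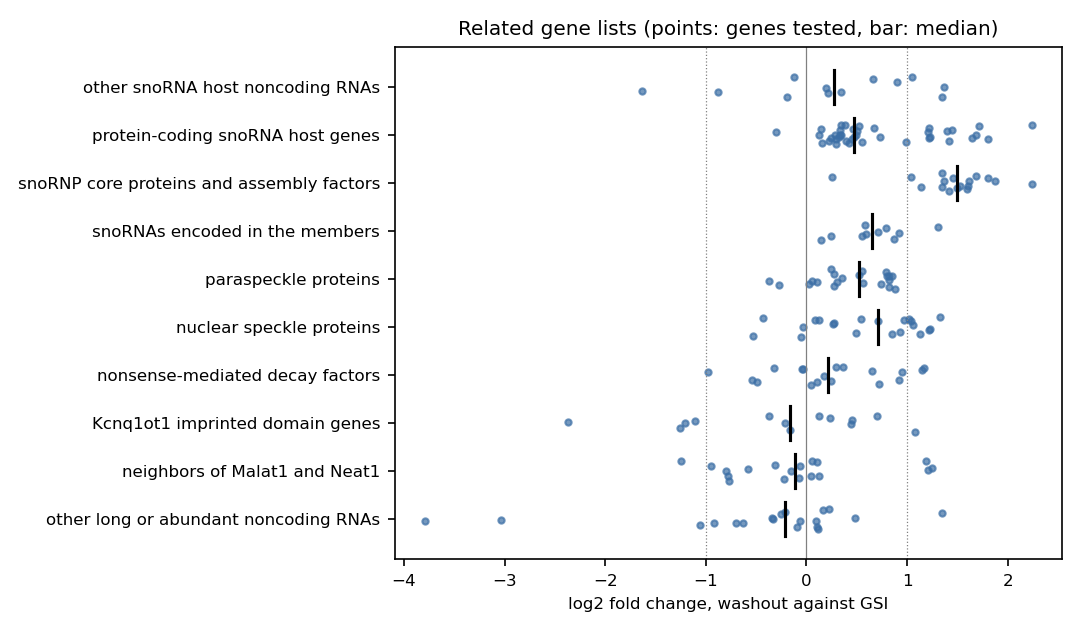
Log2 fold change, washout against GSI (horizontal axis), of every tested gene in the related lists (points, spread vertically for legibility), with the median of each list as a black bar. The snoRNP list has the highest median at 1.5, and the medians of the other snoRNA host noncoding RNAs, the other long noncoding RNAs and the genes of the Malat1 and Kcnq1ot1 loci lie between -0.21 and 0.27.

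Other noncoding RNAs gave no common direction. Of 40 names listed, 29 were in the count table and 19 could be tested, with a median log2 fold change of -0.21. Called higher was 1, Mir17hg, the host of the miR-17 to miR-92 cluster (1.35, edgeR adjusted p = 0.000525). Called lower were 3, the lowest being Mir22hg, which fell from 393 and 102 counts to 30 and 5 counts (log2 fold change -3.79, edgeR adjusted p = 0.00112). Another of the 3, Ptprv (-1.06, edgeR adjusted p = 0.000878), was listed here although it encodes a receptor phosphatase in the mouse. The counts and the median of this list include it. The shares called among all genes tested were 7.74% higher and 11.7% lower. The RNA subunits of RNase P and RNase MRP, Rpph1 and Rmrp, did not pass the test, with -0.25 (standard error 0.189, edgeR adjusted p = 0.308) and 0.12 (standard error 0.195, edgeR adjusted p = 0.643). RNase P makes the first cut at the end of Malat1. Tug1, another long RNA of the nucleus, was at -0.06 (standard error 0.194, edgeR adjusted p = 0.807).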

How the data were processed

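The 4 Beko libraries are stranded RNA-Seq of total RNA depleted of ribosomal RNA. Reads were trimmed by the authors with trimGalore and aligned to mm9 with HISAT2 2.2.1 (also in the submitters' processing notes), with 1 alignment kept per read and a short limit on intron length. The deposited values are raw read counts per gene from summarizeOverlaps on the iGenomes annotation, neither normalized nor pooled. The strand setting and overlap mode are not given in the sources used here. All columns were used.

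Counts were tested with edgeR 4.0.16 in R 4.3.3 (filterByExpr, TMM factors, quasi-likelihood, no covariate, Benjamini-Hochberg adjustment over all genes tested). Standard errors were derived from the F statistic and the log2 fold change. The scripts were tested on simulated data. The members, gene lists and alternatives were chosen with earlier results of these data known, and no set test was run. Alternatives were DESeq2 1.42.0, RLE factors, the total count alone, other filters on low counts, the replicate number as a block, thinning to the smallest library, leaving out each library, and, added after seeing the data, a loess correction for GC content and exon length.

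Symbols were matched to GENCODE vM1 on mm9, where 20641 of 24391 had 1 entry. Kcnq1ot1, Snhg6 and Snhg8 had none and are given without an mm9 position. Named genes were the members, the highest and lowest tested gene of each list, genes that overlap a member or start within 1 kb of one, and the 3 genes most like Malat1. A gene under this rule is not reported here. Further genes (Tnfrsf26, Tspan32, Snhg5, 1500012F01Rik, Fbl, Nop56, Nop58, Magoh, Upf1, Sfpq, Nono, Pspc1, Srsf2, Son, Ptprv, Rpph1, Rmrp, Tug1, the untested genes of the Kcnq1ot1 cluster and the remaining snoRNAs) and the promoter motifs were chosen after their values were seen. Snord82, which the snoRNA list also holds, does not lie inside a member and was left out of the comparison with hosts, as were Snord87 and Snora24, whose hosts have no position here.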

Additional observations from a re-analysis of the deposited data

How the results depend on the processing

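Neat1, Gas5, Snhg3, Snhg4 and Snhg6 kept their direction and their side of both thresholds in all alternatives that could be run. Depth limits a library at 3 counts, which is 0.0881 to 0.223 CPM, far below all 10 RNAs. With total-count scaling Malat1 moved to -1.90, Snhg1 to 0.99 and Snhg12 to 0.87, and 3 of the 9 other RNAs were called higher. The correction for GC content and exon length, which 7 of the 10 RNAs could enter, took Snhg12 to 0.86, and 4 were then called higher. It used merged exons of GENCODE vM1 and not the iGenomes features that were counted. For Snhg1 these merge into 1 block of 2947 bases that spans the gene with its introns. The corrected values of the hosts therefore do not rest on the length and GC content of the spliced RNAs alone. With 1 library left out, the log2 fold change of Kcnq1ot1 ran from -0.26 to 0.14 and that of Snhg8 from 0.48 to 1.07. The lone library of a group was then assumed to vary like the other group. The number called higher ran from 5 to 6. With the replicate number as a block, 5 RNAs were called higher and 1 lower, as without it. The block changed no call of a member, and Gas5 was at 1.20 and Neat1 at -2.50. The labels do not say what the shared number stands for. The differences between replicate 1 and replicate 2 correlated at 0.533 over genes between the groups, and replicate 1 was the deeper library in both. With the block, 981 of all genes tested were called higher and 1576 lower.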
